A study of Mus musculus with 36 samples.

Results

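Gene expression in the heart was compared between male mice of 10 and of 8 weeks of age, from 4 libraries of each age, which are 8 of the 36 libraries of a study of heart, kidney and liver over the transition from adolescence to adulthood. The members were taken by their labels, as the heart libraries labelled 10 weeks and those labelled 8 weeks. All mice were wild type (WT), of the inbred strain C57BL/6NCrl, bought from a commercial breeder and given no treatment that the labels name apart from the ketamine and xylazine anaesthesia before collection. The study also had mice of 12 weeks, whose 4 heart libraries entered the fit to estimate the spread and are given beside some values. The hearts were frozen, polyadenylated RNA was sequenced as read pairs, and the authors deposited the number of pairs counted on each gene. The labels name neither the animal nor the part of the heart that a library came from, and they give no date of extraction or sequencing.

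The heart wall holds contracting cardiomyocytes, endothelial cells, fibroblasts, pericytes, smooth muscle and resident macrophages, and its outer face is covered by the epicardium, a thin layer of mesothelium. Mesothelium also lines the pericardial sac and the organs of the chest and belly, and its cells make mesothelin, uroplakins and keratins that the muscle below does not. In the rodent ventricle, the slow β-myosin of the fetal heart (Myh7) gives way to the fast α-myosin (Myh6) around birth, and small amounts of Myh7 remain in the adult. Hepatocytes are not part of the heart, and their secreted proteins, such as albumin (Alb), are so abundant in liver that traces can be seen in other samples. In RNA from bulk tissue, fewer cells of a type and less RNA per cell cannot be told apart.

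The sequences below are the 250 bases before the start of the Ensembl canonical transcript of Myh7, the most clearly lowered heart muscle gene, and of Upk3b, Msln and Krt19, which stand for the mesothelial genes that were higher together. They were read from GRCm39 in the direction of the gene and lie at chr14:55232084-55232333 on the minus strand for Myh7, chr5:136067100-136067349 on the plus strand for Upk3b, chr17:25973433-25973682 on the minus strand for Msln and chr11:100036947-100037196 on the minus strand for Krt19. Capitals mark matches on either strand to 5 short motifs that were searched for, namely CATTCC (the M-CAT element), TATAAA (the TATA box), GGGCGG (the GC box), CAGCTG (an E-box) and CCAAT (the CCAAT box). No marked motifs overlap.
Myh7: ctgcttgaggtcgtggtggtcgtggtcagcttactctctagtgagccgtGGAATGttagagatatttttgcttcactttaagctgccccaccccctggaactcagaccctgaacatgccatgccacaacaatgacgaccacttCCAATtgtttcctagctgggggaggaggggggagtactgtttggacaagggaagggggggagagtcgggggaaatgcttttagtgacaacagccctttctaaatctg
Upk3b: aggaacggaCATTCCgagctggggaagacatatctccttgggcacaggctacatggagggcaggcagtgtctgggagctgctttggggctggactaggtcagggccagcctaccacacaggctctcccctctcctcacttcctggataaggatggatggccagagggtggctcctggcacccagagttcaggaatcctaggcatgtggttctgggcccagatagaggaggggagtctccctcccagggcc
Msln: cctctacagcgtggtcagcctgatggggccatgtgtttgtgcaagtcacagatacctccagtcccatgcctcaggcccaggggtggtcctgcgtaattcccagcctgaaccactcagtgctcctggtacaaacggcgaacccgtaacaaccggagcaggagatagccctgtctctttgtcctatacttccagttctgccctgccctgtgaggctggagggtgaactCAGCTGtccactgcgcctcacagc
Krt19: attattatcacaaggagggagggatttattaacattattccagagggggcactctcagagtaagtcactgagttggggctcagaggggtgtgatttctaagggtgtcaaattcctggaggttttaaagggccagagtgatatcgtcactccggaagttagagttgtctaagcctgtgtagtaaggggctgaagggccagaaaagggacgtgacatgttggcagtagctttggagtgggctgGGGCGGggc
The Myh7 window held an M-CAT element on the opposite strand, 201 to 196 bases before the start, and a CCAAT box 107 to 103 bases before it. The Upk3b window held an M-CAT element 241 to 236 bases before the start. An E-box lay 24 to 19 bases before the start of Msln, and a GC box 9 to 4 bases before that of Krt19, so the 3 mesothelial genes did not share any of the 5 motifs in these windows. Of the canonical promoters of 21734 protein-coding genes, cut to the same length, 12.1% held CATTCC, 11.9% TATAAA, 36.3% GGGCGG, 11.9% CAGCTG and 36.5% CCAAT. A match is a run of letters and not a binding site.

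The 8 libraries held 21743131 to 29601700 counted pairs, and 17.1% to 19.1% of their pairs matched several places in the genome and added to no gene. A gene was tested when its mean count was at least 10 at 8 or at 10 weeks, which held for 14889 of 78239 gene identifiers. Levels are in CPM, the usual scaling of counts to sequencing depth, with edgeR's TMM factors, or in unscaled CPM, without those factors, where this is said, differences are log2 fold changes of 10 minus 8 weeks with their standard error (SE), and a gene is said to be called where edgeR's quasi-likelihood test gave an adjusted p under 0.05. The 9 markers set for ventricular cardiomyocytes summed to 58500 to 61100 CPM at 8 weeks and to 54800 to 59200 CPM at 10 weeks, and the 6 atrial markers to 10.8 to 34.8 and 10.1 to 14.2 CPM. The atrial markers include Nppa, which was highest in 8-week library 1. The authors describe the 4 libraries of an age as biological replicates, and the p-values measure the spread between them.

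At 10 weeks, 114 genes were higher (0.766% of the genes tested) and 46 lower (0.309%), 160 in all (1.07%). Among them, 46 were higher (0.309%) and 8 lower (0.0537%) by over 2-fold. The 8-week and 10-week libraries did not overlap for 96 of the 114 higher and 45 of the 46 lower genes, against 9.95% of all genes tested. Of the higher genes, 103 code for proteins and 11 are long non-coding RNAs, and of the lower genes 40 code for proteins. At 12 weeks, the mean level of 81 of the 114 higher genes was nearer to that at 10 weeks than to that at 8 weeks on the log2 scale, as was that of 36 of the 46 lower genes. The same share over all genes tested was not counted. A nearer mean can still lie well below that at 10 weeks, as for Upk3b, with means of 1.078, 12.75 and 4.765 CPM at 8, 10 and 12 weeks. The median log2 fold change of all genes tested was -0.005. The number of calls depended on single libraries. Without 10-week library 2 there were 249 higher and 165 lower genes, and without 8-week library 1 there were 189 and 107. Without 8-week library 2, 3 or 4 there were 25, 39 and 35 higher and 7, 13 and 16 lower genes, and without 10-week library 1, 3 or 4 there were 48, 45 and 31 higher and 20, 10 and 7 lower genes. Of the 58 called genes named here, 15 were called in each of the 8 fits with 1 library left out. All 58 kept their direction in them, which is no separate support, since they were chosen for being called.

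**Figure D1:**
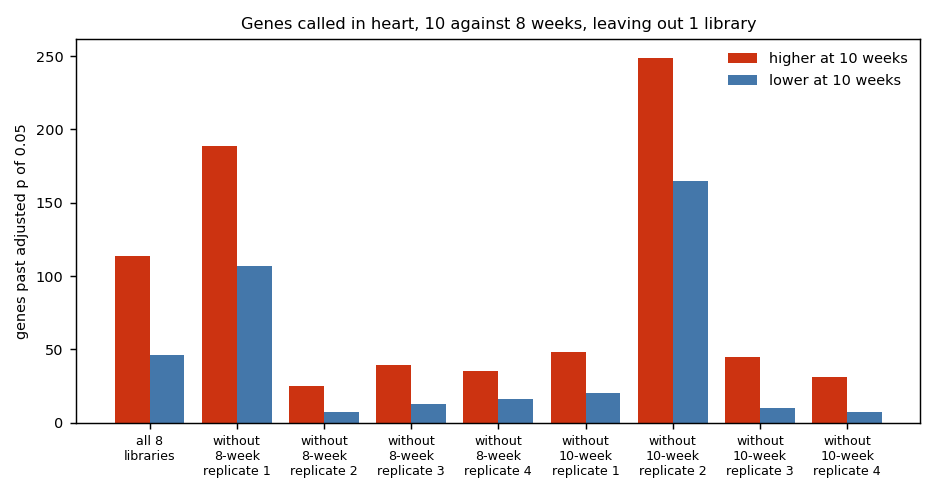
Number of genes called in heart at 10 against 8 weeks (vertical axis, edgeR adjusted p under 0.05) with all 8 libraries and with each left out in turn (horizontal axis), higher at 10 weeks in red and lower in blue. The count of higher genes was smallest, 25, without 8-week replicate 2 and largest, 249, without 10-week replicate 2, against 114 with all libraries.

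Mesothelial genes were among the called genes with the largest log2 fold changes. Upk3b, a uroplakin of mesothelial cells (chr5:136067350-136075342), stood at 1.12, 0.206, 1.77 and 1.21 CPM in the 8-week libraries 1 to 4 and at 16.3, 2.29, 10.6 and 21.9 CPM in the 10-week libraries 1 to 4. The groups did not overlap, but 10-week library 2 lay close to the highest 8-week library while the other 10-week libraries were far above it. On the log2 scale the 10-week level was 3.61 ± 0.72 higher (SE; adjusted p = 0.0240 by edgeR). Msln, which encodes mesothelin, a surface protein of mesothelium, measured 0.965, 0.310, 1.73 and 1.01 CPM at 8 weeks and 10.5, 2.48, 6.75 and 11.3 CPM at 10 weeks. Library 2 was again the lowest of its group, and the difference was 2.99 ± 0.57 (adjusted p = 0.0191). Muc16, a large membrane mucin of mesothelium and other wet surfaces, was at 0.362 CPM or less in the 8-week libraries and at 2.20, 0.375, 2.06 and 5.21 CPM at 10 weeks, which gave 4.22 ± 0.86 (adjusted p = 0.0275). Its 8-week mean of 0.131 CPM was under the count minimum. It was tested only through the 10-week libraries, so its direction was fixed by the filter.

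In the other genes of this kind 10-week library 2 was again the lowest of its age. Krt19, Krt7 and Krt18, keratins of simple epithelia and mesothelium, rose by 2.89 ± 0.68, 3.25 ± 0.69 and 3.17 ± 0.67 on the log2 scale (adjusted p = 0.0474, 0.0296 and 0.0296). Lrrn4, a leucine-rich repeat membrane protein, rose by 3.71 ± 0.85 (adjusted p = 0.0461), and its 10-week library 2, at 0.421 CPM, lay within the 8-week range of 0.0344 to 0.681 CPM. Upk1b, another uroplakin, rose by 3.58 ± 0.80 (adjusted p = 0.0405), and Crb2, a protein of epithelial cell polarity, by 4.04 ± 0.88 (adjusted p = 0.0354). Lrp2, the endocytic receptor megalin of absorptive epithelia, which was listed with the kidney tubule genes, was at 0, 0.0344, 0 and 0.117 CPM at 8 weeks and at 1.5, 0.0937, 0.465 and 0.902 CPM at 10 weeks, 4.10 ± 0.92 higher (adjusted p = 0.0414), and 10-week library 2 lay within the 8-week range. Of the 12 tubule genes, 3 were tested, with a median of 0.24, and only Lrp2 was called, against 0.766% of all genes called higher. Of the 12, 4 had no count in any 8-week library. Pcdh15, a protocadherin known from hair cells, rose by 3.82 ± 0.81 (adjusted p = 0.0313), from 0.117 CPM or less to 0.849, 0.187, 0.426 and 0.984 CPM. Krt19, Krt7, Krt18, Upk1b, Crb2, Lrp2 and Pcdh15 also had 8-week means under the count minimum, of 0.192 CPM or less. They were tested only through the 10-week libraries, so their direction was fixed by the filter. Aldh1a2, which makes retinoic acid in the epicardium, and Slc39a8, a metal ion transporter, which were picked after their values were seen, rose by 1.32 ± 0.28 and 1.89 ± 0.34 (adjusted p = 0.0296 and 0.0151), and in both the 10-week library 2 lay within the 8-week range.

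Of the 18 genes listed for mesothelium, nerve and airway, 9 were tested, 8 were higher and 4 were called, against a background of 0.766% called higher, and the median of the 9 was 0.34, against -0.005 for all genes. The 4 called genes are Upk3b, Msln, Krt19 and Lrrn4, which were listed for mesothelium. Of these, Krt19 was tested only through the 10-week libraries, as said above. Wt1, a transcription factor of the epicardium, was at 4.23 to 6.54 CPM at 8 weeks and 3.76 to 6.52 CPM at 10 weeks, with a difference of -0.01 ± 0.19 (adjusted p = 0.982). The summed level of the markers Msln, Upk3b, Krt19 and Wt1 was 6.82 to 7.86 CPM at 8 weeks and 34.1, 9.65, 21.7 and 42.0 CPM in the 10-week libraries 1 to 4. At 12 weeks it ran from 6.12 to 18.6 CPM, so that part of the 12-week libraries lay within the 8-week range. These calls were lost in most fits with 1 library less. Krt7, Krt18, Krt19, Upk1b, Muc16 and Crb2 were not called without any one of 8-week libraries 2, 3 and 4 and 10-week libraries 1, 3 and 4, with adjusted p of up to 0.152. Aldh1a2 was lost in the same 6 fits, Lrrn4 and Lrp2 in those and without 8-week library 1, and Pcdh15 in those apart from 8-week library 4 (adjusted p of up to 0.143). Upk3b was lost without 8-week library 2, 3 or 4 or 10-week library 1 or 4, Msln without 8-week library 2 or 4 or 10-week library 1 or 4, and Slc39a8 without 8-week library 2 or 10-week library 4 (adjusted p of up to 0.0825). Without 10-week library 2 the adjusted p fell to 0.00223 for Upk3b and Msln. With limma-voom Upk3b was not called (adjusted p = 0.137), nor was Msln (adjusted p = 0.0733).

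**Figure D2:**
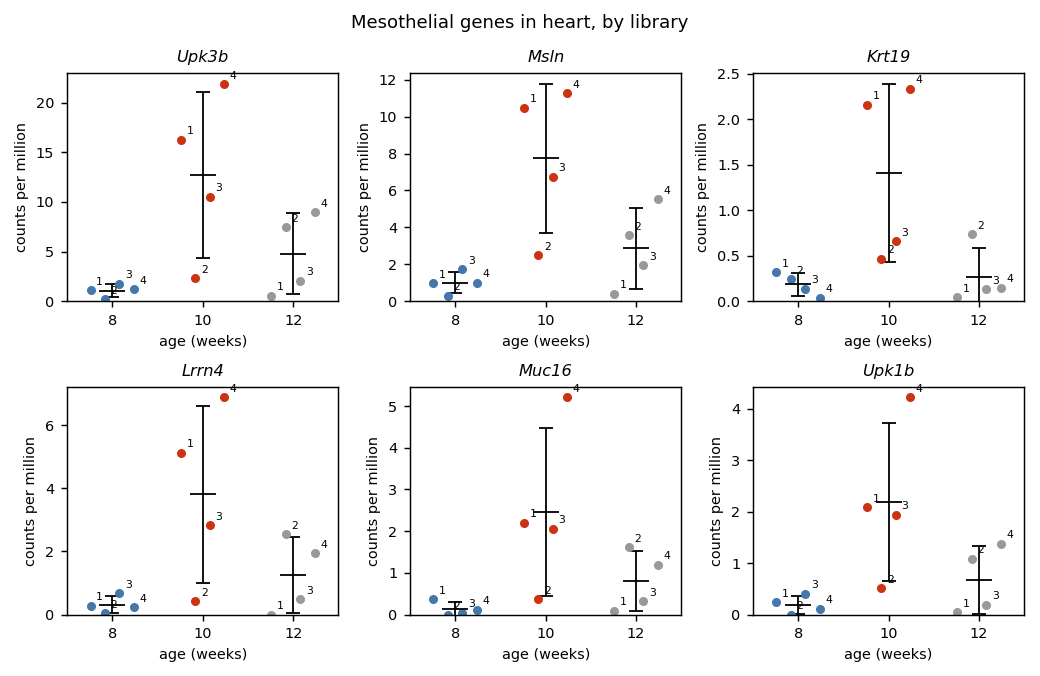
Levels of 6 mesothelial genes in heart (vertical axes, CPM from 0) by age in weeks (horizontal axis). Each point is 1 library with its number, blue at 8, red at 10 and grey at 12 weeks, and bars give the mean and SD of 4 libraries; in each panel 10-week library 2 is the lowest of its age, at 2.29 for Upk3b against 10.6 to 21.9 in the other 10-week libraries.

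Because the mesothelial level moved with age and with the library, the fit was repeated with the mean log2 level of Msln, Upk3b, Lrrn4, Krt19 and Wt1 as a covariate, an alternative chosen after seeing the data. In this fit 0 genes were called higher and 0 lower by edgeR, the only tool run for it, and 1358 genes had an unadjusted p under 0.05, against 2393 without the covariate. Upk3b, Msln, Krt19 and Lrrn4 were themselves called between the ages, so the covariate overlaps with age. The fit cannot separate age from mesothelial level, and no conclusion is drawn from the loss of calls. Over the 58 called genes named here, the median share of the log2 fold change that remained was 77.7%. Upk3b and Msln, which are part of the covariate, kept 0.07 and 0.36. Myh7 kept -1.59 (adjusted p = 0.105), Mgl2 0.91 (adjusted p = 0.130) and Lum 0.63 (adjusted p = 0.177), and C3 and Efemp1 kept 0.74 and 0.77.

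Transcripts of hepatocytes were found in 2 of the 4 libraries of 10 weeks. Alb, the main protein of plasma (chr5:90608647-90624696), had 0 counts in each 8-week library, which allows up to 0.134 unscaled CPM by the limit of 3 counts in the smallest of them. The 10-week libraries 1 to 4 held 2, 224, 2 and 368 counts. Libraries 2 and 4 thus stood apart at 10.3 unscaled CPM (exact 95% interval 9.0 to 11.7) and 15.2 unscaled CPM (13.7 to 16.8), whose point values are 76.9-fold and 113-fold that limit of the 8-week libraries, and libraries 1 and 3 stayed under it. The intervals cover counting error only. The gene was not called (edgeR adjusted p = 0.0773), and at 12 weeks the counts were 2, 10, 0 and 70. Against the median of the 12 liver libraries, libraries 2 and 4 held 0.0143% and 0.0210% of the Alb level of liver.

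The other hepatocyte genes showed the same libraries. Serpina3k, a serine protease inhibitor of plasma, had 0, 60, 0 and 140 counts at 10 weeks, and Mup3, a major urinary protein made in liver, 0, 44, 0 and 99, with 0 in all 8-week libraries for both. Apoa1, the main protein of high-density lipoprotein, had 0 to 3 counts per library at 8 weeks and 0, 61, 1 and 68 at 10 weeks. The summed level of the 40 genes listed for liver was 31.4 to 37.2 CPM at 8 weeks. In the 10-week libraries 1 to 4 it was 44.5, 91.6, 37.9 and 103 CPM. Ttr, the plasma carrier of thyroid hormone, at 0.231, 1.59, 0.155 and 2.05 CPM at 10 weeks and 0.136 CPM or less at 8 weeks, was called with 3.27 ± 0.75 (adjusted p = 0.0445). The call was lost without 10-week library 2 or 4 or any 8-week library, with an adjusted p of up to 0.157. Hpx and Hp, acute phase proteins that bind heme and hemoglobin, had differences of 3.54 ± 0.93 and 1.70 ± 0.45 and were not called (adjusted p = 0.0773 and 0.0787). Over the liver list, 26 genes were tested, 25 were higher and 3 were called, Ttr, Cyp2e1 and Car3, against 0.766% of all genes called higher. The fitted median was 3.49, and 2.69 with the 8 genes that had no count at 8 weeks set to their lower bound. Those 8 genes passed the count minimum only through the 10-week libraries, so their direction was fixed by the filter. Ttr, with 2 to 3 counts per library at 8 weeks, Cyp2e1, with 1 to 6, and Apoa1 were also under that minimum at 8 weeks. They too were tested only because of their 10-week counts and could not come out lower. The number of higher members and the calls of Ttr and Cyp2e1 are thus no separate support for a direction.

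Cyp2e1, a cytochrome P450 that oxidizes ethanol and acetone (chr7:140343652-140355167), had another pattern. It was at 0.0804, 0.103, 0.273 and 0.0389 CPM at 8 weeks and at 1.08, 0.843, 1.05 and 2.34 CPM at 10 weeks. All 4 of the 10-week libraries lay above all 8-week libraries, including libraries 1 and 3, in which Alb had 2 counts. The log2 fold change was 3.43 ± 0.50 (adjusted p = 0.00305), and it was called in all 8 fits with 1 library left out. Without 10-week libraries 2 and 4 it was 3.10 (adjusted p = 0.00893), and the 12-week libraries held 0.258 to 0.649 CPM. Car3, a carbonic anhydrase of fat, muscle and liver, rose by 2.30 ± 0.51 (adjusted p = 0.0405) and was at 0.926, 1.22, 1.71 and 0.738 CPM at 10 weeks, with 0.409 CPM or less at 8 weeks. The call of Car3 was lost without 8-week library 2, 3 or 4 or 10-week library 1, 3 or 4 (adjusted p of up to 0.133). Leaving 189 liver-rich genes out before scaling gave 104 higher and 43 lower calls, and leaving out 10-week libraries 2 and 4 together gave 160 and 71. The part of liver RNA in these results was not tested further.

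**Figure D3:**
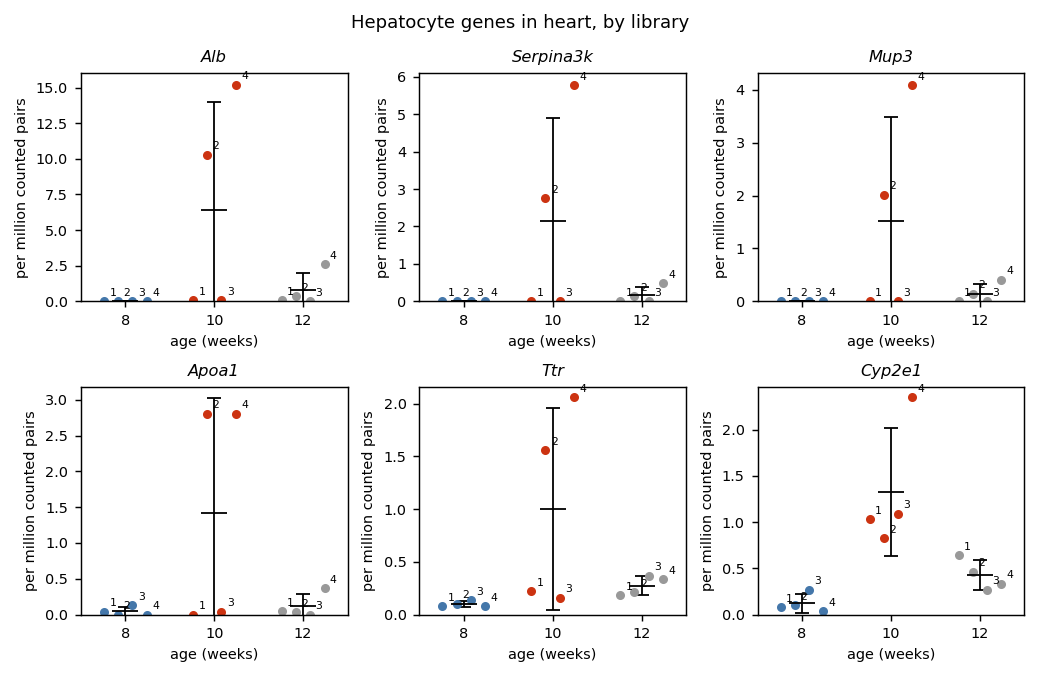
Levels of 6 genes of hepatocytes in heart (vertical axes, unscaled CPM from 0) by age in weeks (horizontal axis), with 1 numbered point per library and bars for the mean and SD of 4 libraries; the lower bar ends below 0 are cut off. Alb, Serpina3k, Mup3, Apoa1 and Ttr are highest in 10-week libraries 2 and 4, while all 4 of the 10-week libraries lie above the 8-week libraries for Cyp2e1.

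Among the genes of heart muscle, Myh7, the slow β-myosin heavy chain (chr14:55208141-55232084), had the smallest p. Its level was 178, 176, 178 and 118 CPM at 8 weeks and 59.9, 62.4, 72.7 and 42.3 CPM at 10 weeks. The groups did not overlap, and library 4 was the lowest of both ages. The log2 fold change was -1.45 ± 0.18 (adjusted p = 0.00136), a 2.74-fold lower level, and the call was kept in all 8 fits with 1 library left out, with adjusted p of 0.000731 to 0.00793. At 12 weeks Myh7 was at 83.0, 134, 79.5 and 98.6 CPM, with a mean between those of the other ages. Myh6, the fast α-myosin, was at 20910 to 24890 CPM at 8 weeks and 19550 to 23800 CPM at 10 weeks and did not pass the test (-0.03 ± 0.10, adjusted p = 0.924). Of the 22 sarcomere genes, 17 were lower and 5 higher with a median of -0.10, and Myh7 was the only member called, against a background of 0.309% called lower.

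Myh7 was also listed among the 12 natriuretic peptide and stretch genes, with a median of -0.23. The other member called there was Npr1, the receptor of atrial natriuretic peptide, against 0.309% of all genes called lower. Npr1 fell from 22.1, 24.1, 23.7 and 25.6 CPM to 18.5, 18.6, 15.4 and 18.9 CPM (-0.42 ± 0.08, adjusted p = 0.0260). The groups did not overlap. The hormone genes themselves were spread widely. Nppa, atrial natriuretic peptide, ran from 3.31 to 27.5 CPM at 8 weeks and 2.44 to 6.28 CPM at 10 weeks (-1.46 ± 0.48, adjusted p = 0.151), and Nppb, brain natriuretic peptide, from 22.1 to 66.9 and 12.2 to 108 CPM (0.74 ± 0.43, adjusted p = 0.420). The highest Nppa level was in 8-week library 1. Acta1, skeletal α-actin, had a difference of -0.59 ± 0.17 without overlap (adjusted p = 0.0945), and Tnnt1, slow skeletal troponin T, of -0.62 ± 0.22 (adjusted p = 0.177). Of the 8 skeletal muscle genes tested, 7 were lower and 0 called.

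Of 16 calcium handling genes tested, 13 were higher, with a median of 0.09, and 1 was called, against 0.766% of all genes called higher. This was Slc8a1, the sodium-calcium exchanger, at 307, 325, 320 and 264 CPM at 8 weeks and 449, 412, 461 and 374 CPM at 10 weeks (0.48 ± 0.11, adjusted p = 0.0413). The 10-week libraries lay above all 8-week libraries, and at 12 weeks the level was 356 to 509 CPM. Of 23 genes of conduction channels and connexins, 13 were higher and 10 lower with a median of 0.01, and Tbx5, a transcription factor of the heart chambers and conduction system on that list, fell from 37.1 to 46.4 CPM to 22.1 to 34.7 CPM (-0.63 ± 0.15, adjusted p = 0.0469) as the only member called, against 0.309% of all genes called lower. Gpr22, an orphan receptor of heart muscle listed with Myh7 among the 11 atrial genes tested (median -0.02), fell by 0.45 ± 0.10 (adjusted p = 0.0439). Gpr22 and Myh7 were the called members of that list, against 0.309% of all genes called lower. Apart from Myh7, the calls in this group rested on the full set of libraries. Npr1 and Slc8a1 were each called in 2 of the 8 fits with 1 library left out, Gpr22 in 3 and Tbx5 in 1, and leaving out any one of 8-week libraries 2 and 3 and 10-week libraries 1, 3 and 4 took all 4 out of the calls (adjusted p of up to 0.152), as did 8-week library 4 for Npr1, Slc8a1 and Tbx5 and 8-week library 1 for Tbx5.

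**Figure D4:**
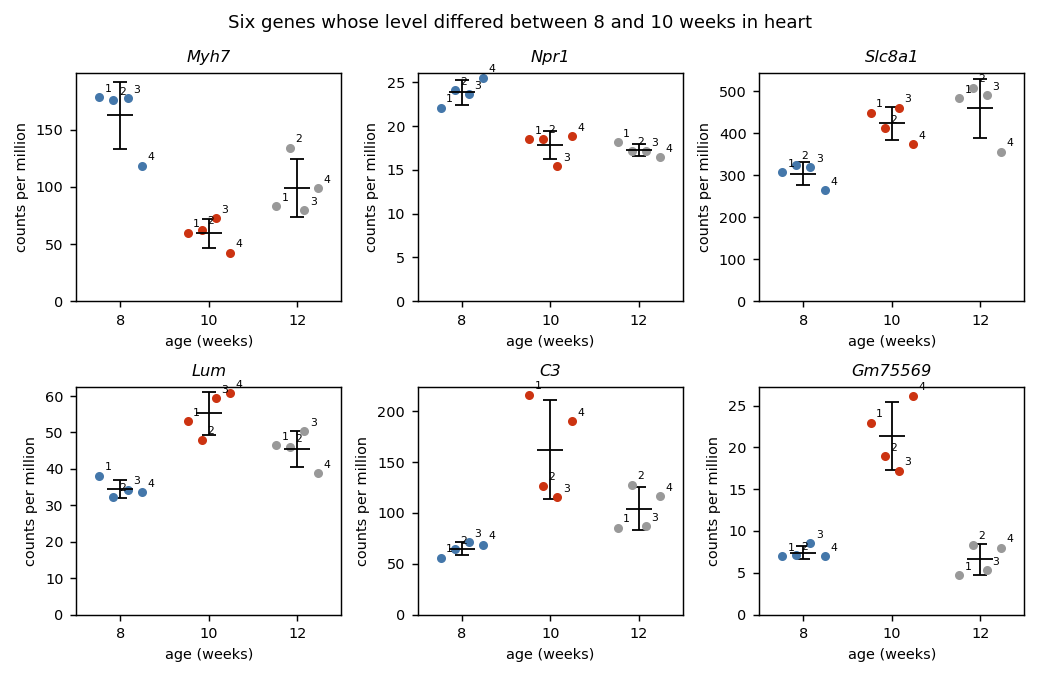
Levels of 6 called genes in heart (vertical axes, CPM from 0) by age in weeks (horizontal axis), with 1 numbered point per library and bars for the mean and SD of 4 libraries. For Myh7 and Npr1 the 4 libraries of 10 weeks lie below those of 8 weeks, and for Slc8a1, Lum, C3 and the long non-coding RNA Gm75569 above them; Gm75569 is at 4.73 to 8.33 at 12 weeks, against 6.99 to 8.54 at 8 weeks.

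Most listed genes of fibroblasts and of the matrix they make had higher values at 10 weeks, and a part of them was called. Lum, the collagen-binding proteoglycan lumican, was at 38.1, 32.3, 34.3 and 33.6 CPM at 8 weeks and 53.0, 48.0, 59.4 and 60.7 CPM at 10 weeks (0.68 ± 0.09, adjusted p = 0.00242). Pdgfra, a growth factor receptor that marks fibroblasts, rose from 30.2 to 33.7 CPM to 43.4 to 47.8 CPM (0.54 ± 0.08, adjusted p = 0.00263), and Efemp1, the matrix glycoprotein fibulin 3, from 5.55, 4.65, 6.18 and 4.87 CPM to 12.9, 9.88, 13.5 and 17.1 CPM (1.33 ± 0.17, adjusted p = 0.00136). In each of these 3 genes all 10-week libraries, including library 2, lay above all 8-week libraries, and each was called in all 8 fits with 1 library left out. Of 14 fibroblast genes, 13 were higher with a median of 0.34, and 3 were called, against 0.766% of all genes called higher. The 3 were Lum, Pdgfra and Dpt, a matrix protein that organizes collagen fibrils (0.41 ± 0.09, adjusted p = 0.0393). Of 23 genes of collagens and their processing, 22 were higher with a median of 0.30, and 4 were called, against 0.766% of all genes. These were Col14a1 (0.58 ± 0.10, adjusted p = 0.0135), Col6a3 (0.68 ± 0.14, adjusted p = 0.0263), Col5a2 (0.41 ± 0.09, adjusted p = 0.0406) and Loxl1, an enzyme that crosslinks elastin and collagen (0.70 ± 0.15, adjusted p = 0.0317), whose lowest 10-week library lay within the 8-week range.

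Of 24 matricellular proteins and small proteoglycans, 22 were higher with a median of 0.22, and the called members were Lum, Thbs1 and Fmod, against 0.766% of all genes called higher. Thbs1, thrombospondin 1, rose from 3.34, 4.72, 4.45 and 3.00 CPM to 8.25, 10.3, 9.46 and 6.03 CPM (1.13 ± 0.22, adjusted p = 0.0205). Fmod, the proteoglycan fibromodulin, was at 0.413 to 0.909 CPM at 8 weeks and at 5.40, 0.609, 4.58 and 9.35 CPM at 10 weeks (2.80 ± 0.63, adjusted p = 0.0419). Its 10-week library 2 lay within the 8-week range, as in several mesothelial genes. With the mesothelial level as a covariate its difference was -0.45, in a fit that cannot separate that level from age. Among 15 basement membrane genes 0 were called, with a median of 0.02, and the smallest p belonged to Col18a1 (0.45 ± 0.11, adjusted p = 0.0514) and Lama2 (0.22 ± 0.12, adjusted p = 0.376). The summed level of the 14 fibroblast genes was 1690 to 1860 CPM at 8 weeks and 1910 to 2270 CPM at 10 weeks, and 1650 to 1820 CPM at 12 weeks. The sums of the matrix lists overlapped between 8 and 10 weeks. They were 985 to 1180 and 1120 to 1650 CPM for collagens and their processing. For matricellular proteins and small proteoglycans they were 1370 to 1480 and 1420 to 1760 CPM. In both lists 10-week library 2 lay within the 8-week range, at 1120 and 1422 CPM. Thbs1 was called in 6 of the 8 fits with 1 library left out and lost without 8-week library 4 or 10-week library 3 (adjusted p of up to 0.0725), Col14a1 in 5, Col6a3 in 3, Dpt, Loxl1 and Fmod in 2 and Col5a2 in 1. Without 8-week library 2 or 3 the collagen genes and Dpt, Loxl1 and Fmod were not called, with adjusted p of up to 0.143. Without 8-week library 4 or 10-week library 1 or 3 the same held for all of these except Col14a1, and without 10-week library 4 for all except Col6a3. Col5a2 was also lost without 8-week library 1.

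Among the markers of other cells of the heart wall 0 endothelial, smooth muscle or pericyte genes were called. Of 21 endothelial genes, 14 were lower with a median of -0.10, and 8 lower and 3 higher ones had an unadjusted p under 0.05. Their summed level did not overlap between the ages, at 2200 to 2370 CPM at 8 weeks and 1810 to 2090 CPM at 10 weeks. The 6 markers set for endothelial cells did overlap in their sum, at 761 to 798 CPM and 733 to 789 CPM. Among single genes the smallest p were those of Aqp1, a water channel of capillaries (-0.62 ± 0.16, adjusted p = 0.0693), and Esam, an adhesion molecule of endothelial junctions (-0.35 ± 0.09, adjusted p = 0.0808). Their levels did not overlap between the ages, at 630 to 802 against 402 to 592 CPM for Aqp1. Aqp1 alone, which was not called, thus made up a large part of the summed level of the 21 genes and of its fall. Among 13 genes of smooth muscle and pericytes, 9 were lower and 0 called, with Cnn1 at -0.66 ± 0.29 and Higd1b at -0.30 ± 0.14 (adjusted p = 0.277 and 0.298). Adipocyte genes were split, with 5 of 11 higher, a median of -0.02 and Car3 as the only call, against 0.766% of all genes called higher, and their summed level was 803 to 952 CPM at 8 weeks and 679 to 903 CPM at 10 weeks. Among 7 brown fat genes 0 were called, with Cpt1b, the muscle enzyme that admits fatty acids to mitochondria, at -0.37 ± 0.24 (adjusted p = 0.467). Globin genes, a sign of blood in the sample, were at a median of 0.38 with 0 of 9 called, with Hba-a1 at 0.51 ± 0.28 and Hbb-bt at 0.64 ± 0.36 (adjusted p = 0.396 and 0.399), and the reads of the near-identical globin copies cannot be assigned with certainty.

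C3, C4b and Mgl2 were called among the genes of complement and immune cells. C3, the central complement protein (chr17:57510964-57535155), was at 55.8, 64.2, 71.0 and 68.9 CPM at 8 weeks and 216, 127, 116 and 190 CPM at 10 weeks. The lowest 10-week library lay well above the highest 8-week library, and the difference was 1.32 ± 0.18 (adjusted p = 0.00184). C4b, complement component 4, picked after its values were seen, rose by 1.33 ± 0.20 (adjusted p = 0.00333), from 4.75 to 7.45 CPM to 9.81 to 18.4 CPM. Mgl2, a galactose-binding lectin of tissue macrophages and dendritic cells, rose from 3.86, 3.85, 4.45 and 3.58 CPM to 9.49, 7.92, 8.03 and 7.54 CPM (1.07 ± 0.13, adjusted p = 0.00136). C3, C4b and Mgl2 were called in all 8 fits with 1 library left out. The related lectin Clec10a, picked after its values were seen, rose by 1.23 ± 0.26 (adjusted p = 0.0314), and Il18r1, a receptor chain for interleukin 18, by 2.42 ± 0.43 (adjusted p = 0.0135), from 0.281 CPM or less to 0.609 to 1.36 CPM. Clec10a was not called without 8-week library 2 or 3 or 10-week library 1, 3 or 4 (adjusted p of up to 0.107), and Il18r1 was not called without 8-week library 2 (adjusted p = 0.0592). Il18r1, with a mean of 0.192 CPM at 8 weeks, was under the count minimum at that age, so its direction was fixed by the filter.

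Of 18 chemokines, receptors and immune genes listed with them, 18 were higher, with a median of 0.54, and 3 were called, against 0.766% of all genes. Cxcl12, a chemokine of stromal cells, rose by 0.52 ± 0.11 with 10-week library 2 inside the 8-week range (adjusted p = 0.0275), Ccl9 by 0.62 ± 0.13 (adjusted p = 0.0334), and Slamf1, a receptor of lymphocytes and macrophages and not a chemokine, by 1.85 ± 0.42 (adjusted p = 0.0444). Ccl9 was highest in 10-week library 2, at 19.8 CPM against 13.3 to 13.7 CPM in the other 10-week libraries and 8.90 to 10.5 CPM at 8 weeks. Without 10-week library 3 or 4 or 8-week library 2, 3 or 4, none of the 3 was called, with adjusted p of up to 0.130. Cxcl12 and Slamf1 were also lost without 10-week library 1, and Slamf1 without 8-week library 1. Of 30 interferon-stimulated genes, 28 were higher with a median of 0.36, and 1 was called, against 0.766% of all genes called higher. This was the guanylate-binding protein Gbp2 (0.70 ± 0.15, adjusted p = 0.0402), which was called in 2 of the 8 fits with 1 library left out (adjusted p of up to 0.127). The 17 macrophage genes tested all had higher values, with a median of 0.33 and 0 called. Timd4, a receptor of resident macrophages, had a difference of 1.38 ± 0.34 and Mrc1, the mannose receptor, of 0.54 ± 0.14 (adjusted p = 0.0633 and 0.0672).

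In the other immune lists 0 genes were called. For MHC class I, 14 of 17 genes were higher with a median of 0.19, led by B2m (0.47 ± 0.14, adjusted p = 0.108) and H2-D1 (0.33 ± 0.11, adjusted p = 0.164). For MHC class II, 5 of 9 were higher, with H2-DMa at 0.40 ± 0.21 and Ctss at 0.20 ± 0.13 (adjusted p = 0.374 and 0.458). Lymphocyte and neutrophil genes were sparse. Among 10 B and plasma cell genes, 9 were higher, with Ighg2c at 0.69 ± 0.26 and Igha at 0.93 ± 0.39 (adjusted p = 0.203 and 0.258), and only 3 of 20 T and natural killer cell genes could be tested, among them Cd247 (-0.38 ± 0.37, adjusted p = 0.662) and Cd4 (-0.13 ± 0.28, adjusted p = 0.864). Of 8 neutrophil genes tested, 6 were higher, and Retnlg, a secreted neutrophil protein, stood at 1.5 CPM in 10-week library 2 against 0.0775 to 0.270 CPM in the other 10-week libraries (1.01 ± 0.73, adjusted p = 0.532), while Mmp9 had a difference of 0.82 ± 0.39 (adjusted p = 0.310).

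In the 7 lists of energy metabolism 0 genes were called. Apart from the mitochondrially encoded proteins, at a median of -0.17 and given below, the lists lay close to the median of all genes. The median log2 fold change was 0.02 for 36 nuclear genes of complex I, -0.02 for 40 nuclear genes of complexes II to V, 0.02 for 20 genes of the tricarboxylic acid cycle and 0.03 for 23 genes of fatty acid oxidation and ketone use. It was -0.04 for 20 PPAR targets and -0.07 for 22 genes of fuel uptake, glycolysis and creatine kinase. Cox4i1, a subunit of cytochrome oxidase, was at 62.8 to 91.3 CPM at 8 weeks and 42.1 to 63.2 CPM at 10 weeks (-0.42 ± 0.13, adjusted p = 0.117), and the ATP synthase subunit Atp5po had a difference of 0.37 ± 0.19 (adjusted p = 0.356). For complex I, Ndufb6 (-0.48 ± 0.21) and Ndufab1 (0.24 ± 0.11) had the smallest p (adjusted p = 0.277 and 0.289), and Ndufb6 was at 21.6 CPM in 8-week library 1 against 10.8 to 11.4 CPM in the others. The cycle enzyme Idh2 was at -0.19 ± 0.10 (adjusted p = 0.358), the fatty acid enzyme Decr1 at 0.26 ± 0.09 and the electron carrier Etfa at 0.19 ± 0.09 (adjusted p = 0.187 and 0.293). Pkm, a glycolytic enzyme, and Gpihbp1, which anchors lipoprotein lipase on capillaries, were at -0.24 ± 0.09 and -0.41 ± 0.14 (adjusted p = 0.221 and 0.166).

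Ppargc1a, a coactivator of mitochondrial genes, was at 110, 120, 134 and 115 CPM at 8 weeks and 151, 159, 168 and 174 CPM at 10 weeks. The ages did not overlap, and the gene missed the threshold (0.45 ± 0.11, adjusted p = 0.0617). Angptl4, a secreted inhibitor of lipoprotein lipase, had a difference of 1.24 ± 0.32 (adjusted p = 0.0727), with 10-week library 1 at 20.2 CPM against 6.79 to 10.3 CPM in the others. Scd1, a fatty acid desaturase, and Stard4, a cholesterol carrier, were at 0.32 ± 0.10 and 0.45 ± 0.14 (adjusted p = 0.120 and 0.122), among 20 genes of lipid synthesis of which 0 were called.

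Of the 13 proteins encoded by the mitochondrial genome, 11 were lower with a median of -0.17, and 0 were called. mt-Nd3 and mt-Atp6 had the smallest p, with -1.06 ± 0.40 and -0.78 ± 0.30 (adjusted p = 0.208 and 0.211). In mt-Co2, 10-week library 1 stood at 49.5 CPM, above the 36.3 to 46.5 CPM of the 8-week libraries, while the other 10-week libraries were at 12.9 to 13.9 CPM (-0.92 ± 0.50, adjusted p = 0.378). The counts of such genes depend on nuclear copies. Gm28661 on the minus strand of chr1:24653966-24654646 is a copy whose 681 bases are all found, unchanged, at bases 7013 to 7693 of the mitochondrial genome, within mt-Co2. It was at 293, 213, 211 and 224 CPM at 8 weeks and 77.7, 35.0, 30.2 and 33.7 CPM at 10 weeks and was called (-2.41 ± 0.42, adjusted p = 0.0121), except without 10-week library 4 (adjusted p = 0.0538). Whether a pair belongs to the copy or to the mitochondrial gene cannot be told from these counts. The processed pseudogenes Gm11263 and Gm4332, picked after their values were seen, were lower by similar steps (-2.01 ± 0.46 and -1.35 ± 0.28, adjusted p = 0.0450 and 0.0296), with levels of 0.116 to 0.424 and 0.328 to 0.540 CPM at 10 weeks. Both calls were lost without 8-week library 2 or 4 or 10-week library 1, 3 or 4, and that of Gm11263 also without 8-week library 3 (adjusted p of up to 0.143). Gm11263, with a mean of 0.251 unscaled CPM at 10 weeks, passed the count minimum only through the 8-week libraries, so its direction was fixed by the filter.

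Genes of growth and insulin signaling gave 3 calls among 17 of the growth hormone and IGF axis, against 1.07% of all genes called in either direction, with a median of 0.12. Irs2, an adaptor of the insulin receptor, fell from 22.2, 20.5, 29.3 and 17.3 CPM to 12.3, 16.0, 12.5 and 13.1 CPM (-0.73 ± 0.13, adjusted p = 0.0151) and was at 10.4 to 11.8 CPM at 12 weeks. Igfbp4 and Igfbp5, binding proteins of insulin-like growth factors, rose by 0.40 ± 0.09 and 0.67 ± 0.15 (adjusted p = 0.0393 and 0.0413). Irs2 was not called without 10-week library 1, 3 or 4 (adjusted p of up to 0.0636), and the binding proteins were not called without any one of 8-week libraries 2, 3 and 4 and 10-week libraries 1, 3 and 4 (adjusted p of up to 0.130), nor Igfbp5 without 8-week library 1. The 11 genes of thyroid hormone handling had a median of 0.03, and their called members were Myh7 and Ttr, against 1.07% of all genes. Among the other lists, imprinted growth genes, ErbB receptors and ligands, renin-angiotensin and adrenergic genes and iron handling genes had 0 calls. Their smallest p belonged to Grb10 (0.22 ± 0.08, adjusted p = 0.153) and Zdbf2 (1.08 ± 0.49, adjusted p = 0.288), to Egfr (0.58 ± 0.14, adjusted p = 0.0521) and Nrg4 (0.76 ± 0.23, adjusted p = 0.117), to Nr3c2 (-0.40 ± 0.11, adjusted p = 0.0945) and Adra1b (0.33 ± 0.10, adjusted p = 0.114), and to Slc40a1 (0.41 ± 0.14, adjusted p = 0.167) and Trf (0.29 ± 0.11, adjusted p = 0.193).

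The lists that respond to the hour of death, to handling and to stress had wide spreads. Of 8 clock activators and morning-phase genes, 4 were higher and 4 lower, with a median of 0.07 and 0 called. The smallest p in that list belonged to Bmal1 and Clock. Bmal1, an activator of the circadian clock, was at 1.04 to 1.53 CPM at 8 weeks and at 10.6, 1.36, 3.8 and 3.44 CPM at 10 weeks (1.95 ± 0.48, adjusted p = 0.0589), with library 2 again within the 8-week range, and Clock had a difference of 0.57 ± 0.14 (adjusted p = 0.0691). Of 13 clock repressors and evening genes, 11 were lower with a median of -0.36 and 0 called, with Cry2 at -0.42 ± 0.11 and Nr1d1 at 0.94 ± 0.25 (adjusted p = 0.0844 and 0.0872). Per1, which is both a clock and a glucocorticoid gene, was at 97.4 to 125 CPM at 8 weeks and at 48.1, 113, 52.9 and 70.0 CPM at 10 weeks (-0.67 ± 0.20, adjusted p = 0.112). The sources give no hour of collection, and the part of the hour in these differences was not tested. Of 17 glucocorticoid-induced genes, 13 were lower with a median of -0.40 and 0 called, Tsc22d3 among them (-0.50 ± 0.15, adjusted p = 0.121).

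Of 23 immediate early genes, 15 were lower with a median of -0.13, and 1 was called, against 0.309% of all genes called lower. This was Klf6, a zinc finger transcription factor (-0.38 ± 0.09, adjusted p = 0.0488), which was not called without 8-week library 2, 3 or 4 or 10-week library 1, 3 or 4 (adjusted p of up to 0.16). Among 16 heat shock and cold-inducible genes, 12 were higher and 0 called, with Hsph1 at 0.65 ± 0.16 and Chordc1 at 0.31 ± 0.08 (adjusted p = 0.0659 and 0.0689). Of 22 genes of the unfolded protein response, 17 were higher with a median of 0.24 and 0 called, with Dnajc3 at 0.35 ± 0.08 and Hyou1 at 0.51 ± 0.13 (adjusted p = 0.0520 and 0.0688). NRF2 targets, genes of cell proliferation and cytosolic ribosomal proteins had medians of -0.03, 0.07 and -0.02 with 0 calls each. Their smallest p were those of Prdx1 (0.31 ± 0.11, adjusted p = 0.157) and Gclm (-0.29 ± 0.12, adjusted p = 0.223), of Mcm3 (0.40 ± 0.15, adjusted p = 0.208) and Mcm6 (0.27 ± 0.13, adjusted p = 0.332), and of Rps23 (-0.48 ± 0.19, adjusted p = 0.222) and Rpl23 (0.21 ± 0.09, adjusted p = 0.275). In all, 17 of the 50 lists had a member called and 33 had 0.

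**Figure D5:**
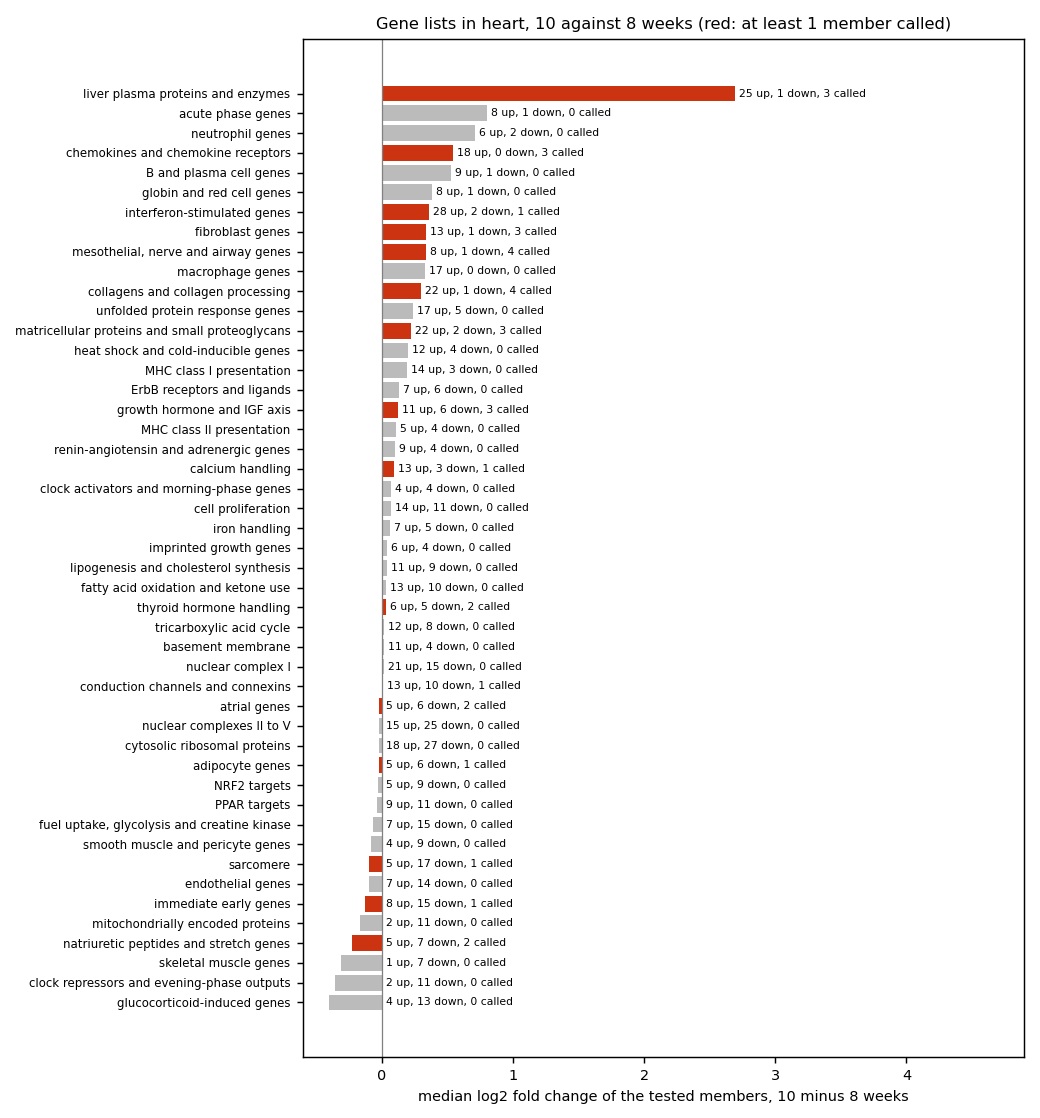
Median log2 fold change at 10 against 8 weeks in heart (horizontal axis) of the tested members of each of the 47 lists with at least 8 of them (vertical axis), with lists that hold a called member in red and the numbers higher, lower and called beside each bar. The liver list is at 2.69, with genes that had no count at 8 weeks at their lower bound. Those genes passed the count minimum only through the 10-week libraries. Chemokines are at 0.54 and collagens at 0.30. The lists of energy metabolism lie near 0, apart from mitochondrially encoded proteins at -0.17.

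The gene with the smallest p, Gm75569, is one of a pair of long non-coding RNAs. Gm75569 (chr2:22902787-22903578, minus strand) and Gm52502 (chr2:22904375-22917409, plus strand) point away from each other, 796 bases apart, and lie between exons of Abi1 (chr2:22830083-22930341, minus strand). Gm75569 was at 6.99, 7.13, 8.54 and 7.01 CPM at 8 weeks and 22.9, 19, 17.2 and 26.2 CPM at 10 weeks (1.53 ± 0.17, adjusted p = 0.000956). Gm52502 was at 1.53, 2.72, 3.04 and 2.80 CPM at 8 weeks and 8.29, 7.87, 5.62 and 7.63 CPM at 10 weeks (1.54 ± 0.21, adjusted p = 0.00184). Both were called in all 8 fits with 1 library left out, and neither group overlapped the other. At 12 weeks they were at 4.73 to 8.33 and 2.18 to 3.65 CPM, and Abi1, whose reads cannot be told from theirs by strand, had a mean of 26.4 CPM with an SD of 1.59 in the younger mice and 26.6 CPM with an SD of 1.24 in the older ones (n = 4 each). In the other organs the pair varied from library to library within an age. Gm75569 was at 8.20, 25.0, 3.13 and 2.07 unscaled CPM in the 10-week kidney libraries 1 to 4 and at 10.4, 33.1, 5.50 and 10.9 in those of liver, where library 2 was the highest in both.

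Further genes at the top of the comparison belong to no list. Lypd8l, a small protein of the Ly6 family, rose from 4.50, 2.69, 3.09 and 3.00 CPM to 10.7, 6.13, 7.56 and 9.10 CPM (1.34 ± 0.18, adjusted p = 0.00184). Hsd17b11, a hydroxysteroid dehydrogenase of lipid droplets, fell from 41.0, 42.0, 50.2 and 47.2 CPM to 27.8, 30.6, 25.3 and 33.1 CPM (-0.63 ± 0.09, adjusted p = 0.00264), and Etv5, an ETS transcription factor downstream of growth factor receptors, from 31.3, 28.3, 34.4 and 38.4 CPM to 18.9, 23.1, 16.2 and 16.9 CPM (-0.82 ± 0.12, adjusted p = 0.00412). None of these 3 genes overlapped between the ages, and all 3 were called in all 8 fits with 1 library left out. So were Csrnp2, a nuclear protein (-0.80 ± 0.13, adjusted p = 0.00743), and Sema5a, an axon guidance protein (-0.74 ± 0.12, adjusted p = 0.00941). Among the genes lowered by over 2-fold were Atcay (-1.93 ± 0.39, adjusted p = 0.0265), a protein of neurons, Wdr90 (-1.04 ± 0.22, adjusted p = 0.0283), a protein of centrioles, the RNA gene Halr1 near the Hoxa cluster (-1.19 ± 0.21, adjusted p = 0.0129) and Zfp984 (-1.77 ± 0.36, adjusted p = 0.0275). Zfp984 is one of a cluster of near-identical zinc finger genes, so its counts are uncertain, and it ran from 6.62 to 26.5 CPM at 8 weeks. Without 8-week library 2 or 10-week library 4, Atcay, Wdr90, Halr1 and Zfp984 were not called, with adjusted p of up to 0.0988. Without 8-week library 3 or 10-week library 1 all of these except Halr1 were lost, without 8-week library 4 Atcay and Wdr90, and without 10-week library 3 Wdr90 and Zfp984.

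Whether the change from 8 to 10 weeks differed between organs was tested by an interaction term in a fit of all 36 libraries, in which each heart value was set against the same ages in kidney or liver. The change differed from that in kidney for 47 of 18505 genes (0.254%) and from that in liver for 255 of 16854 genes (1.51%), with heart the more positive for 34 and 164 of them. Leaving out 8-week heart library 1, 2, 3 or 4 or 10-week library 4 gave 28, 9, 20, 13 and 19 genes against kidney, and leaving out 8-week library 2 or 4 or 10-week library 4 gave 169, 107 and 134 against liver. The change of Cyp2e1 in heart was 3.60 ± 0.44 above that in kidney (edgeR adjusted p = 1.33e-05) and 3.53 ± 0.43 above that in liver (adjusted p = 3.94e-05), organs in which it changed by -0.16 and -0.09 and stood at 1600 to 2300 and 5370 to 8570 unscaled CPM. Part of the mesothelial genes differed between heart and liver past the threshold. Msln had a log2 fold change of -2.02 in liver (adjusted p = 0.0414), and its change in heart was 5.0 ± 0.81 more positive (adjusted p = 0.00166), and for Upk3b, at -1.49 in liver, the difference was 5.08 ± 0.95 (adjusted p = 0.00479). Krt19, Aldh1a2, Krt18, Pcdh15 and Wt1 did not pass this test against liver (adjusted p = 0.0629, 0.0718, 0.138, 0.162 and 0.631). In kidney, Msln and Upk3b were 0.77 and 0.95 higher at 10 weeks, and the difference from heart did not pass the test (adjusted p = 0.361 and 0.282).

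Gm28661 moved in the opposite direction in the other organs. Its change in heart minus that in kidney was -4.61 ± 0.60 (adjusted p = 5.24e-05) and minus that in liver -4.13 ± 0.60 (adjusted p = 0.000527). It was at 9.52 to 11.1 and 11.6 to 16.2 unscaled CPM in the 8-week libraries of kidney and liver and at 30.0 to 95.5 and 44.7 to 50.6 at 10 weeks. For Gm11263 these differences were -4.94 ± 0.59 and -3.02 ± 0.53 (adjusted p = 1.33e-05 and 0.00242), and for Gm4332 -2.95 ± 0.59 and -2.93 ± 0.56 (adjusted p = 0.0233 and 0.00651). The rise from 8 to 10 weeks passed the test for Gm28661 in both organs (adjusted p = 0.0191 in kidney and 0.0166 in liver), for Gm11263 in kidney (adjusted p = 0.00197) and for Gm4332 in liver (adjusted p = 0.0164), while Gm11263 in liver and Gm4332 in kidney had values of 1.00 and 1.59 (adjusted p = 0.0687 and 0.118). The labels name no batch within which this could be examined, and the part of library preparation in it was not tested. For Etv5 the change in heart minus that in liver was -1.70 ± 0.26 (adjusted p = 0.000919), where it was higher at 10 weeks, and for Efemp1 it was 1.47 ± 0.27 above it (adjusted p = 0.00348). Myh7 was at most at 0.0891 unscaled CPM in kidney at these ages. Its change in heart minus that in kidney was -1.18 ± 1.44 (adjusted p = 0.930). With so few counts in kidney the test cannot tell whether the change differed, and no conclusion is drawn from it.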

How the data were processed

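Polyadenylated RNA of 36 libraries from heart, kidney and liver at 8, 10 and 12 weeks was sequenced. Per the labels and the study's methods, the authors checked reads with FastQC 0.11.9, trimmed them with cutadapt 4.2 and aligned them with STAR 2.7.11b to GRCm39 with Ensembl annotation, and they deposited raw counts of read pairs per gene. The unstranded counts were used, since 49.88% to 50.01% of pairs fell on the first strand. GENCODE names matched 78168 of 78239 identifiers. Pairs outside named genes stayed out of library sizes. Genes with a mean count of at least 10 at 8 or 10 weeks were fitted with edgeR 4.0.16 (R 4.3.3), with TMM factors and the quasi-likelihood test over the 12 heart libraries, and p-values were adjusted by Benjamini-Hochberg over all genes tested. Interaction terms were fitted over 36 libraries. Groups were taken from the labels. The scripts were tested on simulated data. Alternatives included DESeq2 1.42.0 and limma-voom (limma 3.58.1). Genes named are the largest changes among calls, the smallest p, and the called members of each list or, with 0 called, its 2 smallest p. Other genes are said to be chosen after their values were seen. Myh6, Nppa, Nppb, Wt1, mt-Co2, Abi1, Alb, Serpina3k, Mup3 and Apoa1 were also named outside this rule. A gene that this rule names is not reported here. The members and the 50 lists were chosen with earlier results of these data known. Figures were drawn with matplotlib 3.10.9.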

Additional observations from a re-analysis of the deposited data

Results flagged for a closer look

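Among 256 groups of 4 libraries, 1 library stood apart from the others of its age in 22, where chance gives about 5% of groups. At 8 weeks the highest library stood apart at 8.54 CPM for Gm75569, 293 for Gm28661, 21.6 for Ndufb6, 250 for Prdx1, 43.2 for Rps23, 9.78 for Tnnt1 and 37.4 for Adra1b, and the lowest at 118 for Myh7, 3.31 for Halr1 and 139 for Tsc22d3. At 10 weeks the highest stood apart at 2.34 CPM for Cyp2e1, 77.7 for Gm28661, 64.7 for Hyou1, 1.5 for Retnlg, 19.8 for Ccl9 and 49.5 for mt-Co2, and the lowest at 15.4 for Npr1, 11 for Col18a1, 0.562 for Cd4, 7.31 for Stard4, 19600 for Myh6 and 0.328 for Gm4332. The 8-week library 1 and the 10-week library 2 held 5 of these each.

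Heart and kidney changed differently, by the interaction term of edgeR's quasi-likelihood test, for 12 named genes. The log2 change in heart minus that in kidney was 3.60 for Cyp2e1, 3.48 for Ttr, 3.18 for Krt7, 3.18 for Fmod, 2.08 for Angptl4, 2.08 for Slc39a8, -4.61 for Gm28661, -1.78 for mt-Atp6, -3.00 for mt-Co2, -4.94 for Gm11263 and -2.95 for Gm4332. For Alb the fitted value was 10.7, which depends on the prior count because the 8-week heart libraries had 0 counts.

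Heart and liver changed differently for 27 named genes. Among mesothelial and epithelial genes the difference was 7.11 for Muc16, 5.40 for Crb2, 5.08 for Upk3b, 5.79 for Upk1b, 3.75 for Krt7, 5.0 for Msln, 4.27 for Lrp2 and 4.79 for Lrrn4. Among the other genes with a more positive change in heart it was 3.12 for Fmod, 1.86 for Slc39a8, 3.53 for Cyp2e1, 3.21 for Ttr, 2.98 for Il18r1, 1.47 for Efemp1, 1.30 for C3, 1.23 for C4b, 1.26 for Ccl9, 1.76 for Igfbp5 and 1.06 for Ppargc1a, with a fitted 10.88 for Alb. It was more negative in heart by -0.77 for Hsd17b11, -1.70 for Etv5, -4.13 for Gm28661, -0.82 for Pkm, -1.03 for Aqp1, -3.02 for Gm11263 and -2.93 for Gm4332.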

How the results depend on the processing

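Counts with 1 library left out, from lowest to highest, were 25 to 249 for genes higher at 10 weeks, 7 to 165 for lower, 11 to 93 for higher by over 2-fold and 1 to 17 for lower by over 2-fold, with the highest without 10-week library 2. They were 9 to 47 genes for the difference from kidney and 107 to 261 for that from liver. In the same order of 6 counts, no filter on low counts gave 494, 304, 155, 38, 257 and 609. DESeq2 gave 250 higher and 121 lower. limma-voom gave 70 higher, 20 higher by over 2-fold, 29 against kidney and 139 against liver. Leaving out 10-week heart libraries 2 and 4, chosen after seeing the data, gave 71 lower, 71 and 15 past 2-fold, and 19 and 100 for the other organs. The mesothelial covariate, also chosen after seeing the data, gave 0 for each of the 4 heart counts with edgeR, with 1358 genes at an unadjusted p under 0.05. That covariate overlaps with age, and the fit cannot separate them. Leaving out genes without a given symbol gave 5 lower by over 2-fold, and the fit of 8 and 10 weeks alone gave 64 against liver. The cause of these differences was not tested.

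Replicate numbers did not pair the libraries: the correlation of deviations was 0.101, 0.091, -0.005 and -0.023 for numbers 1 to 4. With the number as a replicate block there were 162 higher, 68 lower, 68 and 12 past 2-fold, and 26 genes against kidney and 250 against liver.

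The direction turned for a few named genes, of which Fmod and Lrrn4 were called in the comparison as reported. With the strand columns summed, log2 fold changes were 0.094 for Ndufb6, -0.004 for Ndufab1 and 0.261 for Cd247. With 1 library left out, they ran from -0.535 to 0.011 for Cd247, -0.24 to 0.027 for Cd4, -0.067 to 0.034 for Myh6 and -0.174 to 0.153 for Wt1. Without 10-week libraries 2 and 4, Cd4 was at 0.016 and Myh6 at 0.018. With the covariate, which overlaps with age and includes Lrrn4 and Wt1, Fmod was at -0.446, Lrrn4 at -0.801, Zdbf2 at -0.477 and Wt1 at 0.146.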
